A study of Mus musculus with 8 samples.

Results

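Crem and 8 other genes of cyclic AMP (cAMP) signalling, 9 of the 37411 genes in the count table, were followed across 8 RNA-seq libraries. The others were Sik1, Pde4b, Pde4d, Pde3b, Pde7a, Rgs1, Rgs2 and Ptger4. They were chosen by role (a cAMP-responsive factor, phosphodiesterases, RGS proteins, a receptor) and on their CPM values in small intestine and spleen in these same libraries. All 9 passed the filter on low counts. The libraries came from sorted CD4+ effector T cells, about 10000 per sample, recovered 6 weeks after transfer into Rag1-/- mice of the C57BL/6 background, which lack T and B cells. A retroviral (LMPd) short hairpin in these cells was directed either at Mdr1, a drug efflux pump (gene Abcb1a), or, as control, at CD8. Small intestine or spleen was the source, and the hosts were Asbt-/-, without the ileal bile acid transporter encoded by Slc10a2, or Asbt+/+. Each of the 8 combinations was 1 library: shMdr1 or shCD8, in small intestine or spleen, in Asbt-/- or Asbt+/+ hosts. Host age and the number of animals behind a library: not given in the sources used here.

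When a receptor coupled to the stimulatory G protein (Gs) is engaged, adenylyl cyclase makes cAMP, which activates protein kinase A and through it transcription factors of the CREB family. Phosphodiesterases break cAMP down again. CREB and its relative CREM bind the cAMP response element in DNA, and a short product of the Crem gene, ICER, lacks the activating domains and represses the same sites. In T cells a high cAMP level is known to restrain signalling from the antigen receptor, and prostaglandin E2 and adenosine are well-known signals that raise it.

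The libraries held 1685225 to 2767105 counts. Fewest genes, 8456, were detected in shCD8 small intestine Asbt+/+, against 11345 to 13184 in the other 7. Mitochondrial transcripts took 18.3% of the counts in shMdr1 small intestine Asbt+/+, 26.8% in shMdr1 spleen Asbt-/-, 17.6% in shCD8 spleen Asbt-/- and 6.63 to 8.62% in the other 5. In 3 of the 4 matched pairs shMdr1 cells had less Abcb1a than shCD8 cells by CPM. The exception, against the label, was the Asbt+/+ small intestine pair, with 23 counts under shMdr1 and 21 under shCD8. Slc10a2 had 0 to 3 counts in a library, and checks nothing about the hosts, since the RNA is from transferred cells. All 12 CD4 T cell markers were detected, at a summed level of 6898 to 10612 CPM in small intestine and 7012 to 8037 CPM in spleen.

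All levels are CPM, counts divided by a common unit of library size, with library totals scaled by the trimmed mean of M values (TMM). Means are given ± SD over the 4 libraries of a level, which differ in the other factors. A fitted log2 fold change is given ± SE from an additive model of tissue, hairpin and host fitted to all genes with edgeR. CPM is not corrected for gene length, so levels are compared between libraries and not between genes. In bulk RNA, fewer cells that express a gene and less RNA per cell cannot be told apart.

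Promoter sequences are shown for the members with a match to the core of the cAMP response element, and for 2 further genes of the pathway as examples, Areg for the full element and Nr4a3 for a promoter with several half-sites. They are the 250 bases before the transcription start in RefSeq (GRCm38.p6, a later build than the mm9 of the counts). Capitals mark TGACG or its reverse complement CGTCA, the element's half-site. In the palindrome TGACGTCA, the full element, a half-site on each strand overlaps.
Rgs2, chr1:144004150-144004399, minus strand: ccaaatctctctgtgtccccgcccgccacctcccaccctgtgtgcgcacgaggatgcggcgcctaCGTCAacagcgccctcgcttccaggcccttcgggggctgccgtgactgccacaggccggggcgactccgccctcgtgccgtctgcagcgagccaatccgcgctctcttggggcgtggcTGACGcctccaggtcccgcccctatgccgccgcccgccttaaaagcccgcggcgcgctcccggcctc
Pde4b, chr4:102421305-102421554, plus strand: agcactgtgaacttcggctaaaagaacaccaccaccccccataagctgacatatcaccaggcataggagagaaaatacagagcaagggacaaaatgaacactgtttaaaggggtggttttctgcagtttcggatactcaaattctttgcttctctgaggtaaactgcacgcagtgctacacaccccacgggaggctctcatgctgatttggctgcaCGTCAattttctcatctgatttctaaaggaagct
Areg, chr5:91139349-91139598, plus strand: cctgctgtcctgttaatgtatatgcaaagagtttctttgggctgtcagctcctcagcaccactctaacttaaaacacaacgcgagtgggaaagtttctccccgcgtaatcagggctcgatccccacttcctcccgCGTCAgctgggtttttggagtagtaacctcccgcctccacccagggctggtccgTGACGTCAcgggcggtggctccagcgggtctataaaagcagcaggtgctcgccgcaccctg
Nr4a3, chr4:48045055-48045304, plus strand: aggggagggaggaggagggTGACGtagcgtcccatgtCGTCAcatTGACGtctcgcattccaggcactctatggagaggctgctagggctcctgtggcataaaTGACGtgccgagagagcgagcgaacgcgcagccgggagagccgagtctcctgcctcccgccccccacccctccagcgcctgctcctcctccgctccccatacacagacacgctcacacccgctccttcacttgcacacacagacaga
Of 32851 RefSeq promoters of this length, 17.8% held at least 1 half-site, 3.9% held 2 or more, 0.688% held 3 or more, 0.137% held 4 or more, and 1.55% held the full element. RefSeq promoters were matched for 4 of the 9 genes, Pde4b, Pde4d, Rgs2 and Ptger4, with 7 promoters in all, and 2 of the 7 held a half-site. The Rgs2 promoter held 2 half-sites, the nearer one 67 to 63 bases before the start. Pde4b had 4 promoters, of which the first held 1 half-site, 34 to 30 bases before the start. Of the 6 other pathway genes called between the tissues, given further on, 5 had a promoter in the table and 4 of these held a half-site. Areg held 3, Nr4a1, Nr4a2 and Nr4a3 held 4 each, and Gpr65 held 0. All but Gpr65 came from a list of CREB target genes, so the share with a half-site describes that list. The full element of Areg began 61 bases before its start. These matches describe the letters of the sequences and nothing about binding in these cells.

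The members were listed with their values in the 2 tissues already known, so the comparison of small intestine with spleen is described for them without a test. Tissue and cell isolation differ together here and cannot be told apart.

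Crem, the cAMP-responsive transcription factor gene, had the highest tissue ratio of the 9. In small intestine it was at 325 CPM in shMdr1 Asbt-/-, 376 in shMdr1 Asbt+/+, 317 in shCD8 Asbt-/- and 241 in shCD8 Asbt+/+. In spleen the same 4 combinations stood at 47.4, 25.4, 43.1 and 39.6 CPM. The lowest small intestine library was thus above the highest spleen library, with an exact Poisson 95% interval of 223 to 261 CPM for the lowest and 37.4 to 59.2 CPM for the highest. These intervals cover counting error only. The matched pairs differed 6.75-fold in shMdr1 Asbt-/-, 14.3-fold in shMdr1 Asbt+/+, 7.23-fold in shCD8 Asbt-/- and 5.99-fold in shCD8 Asbt+/+. The widest pair combined the highest small intestine level with the lowest spleen level. Crem averaged 315 ± 55.6 CPM in small intestine and 38.9 ± 9.53 CPM in spleen (SD, n = 4 each), a fitted log2 fold change of 3.03 ± 0.29, or 8.16-fold. Over 14 other settings, the fitted ratio ranged from 7.02-fold to 8.87-fold. The counts are summed per gene, so activating, repressing and ICER products of Crem are not separated. Gm6225, a transcript on the opposite strand within the gene, had 111 counts summed over all 8 libraries.

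**Figure D1:**
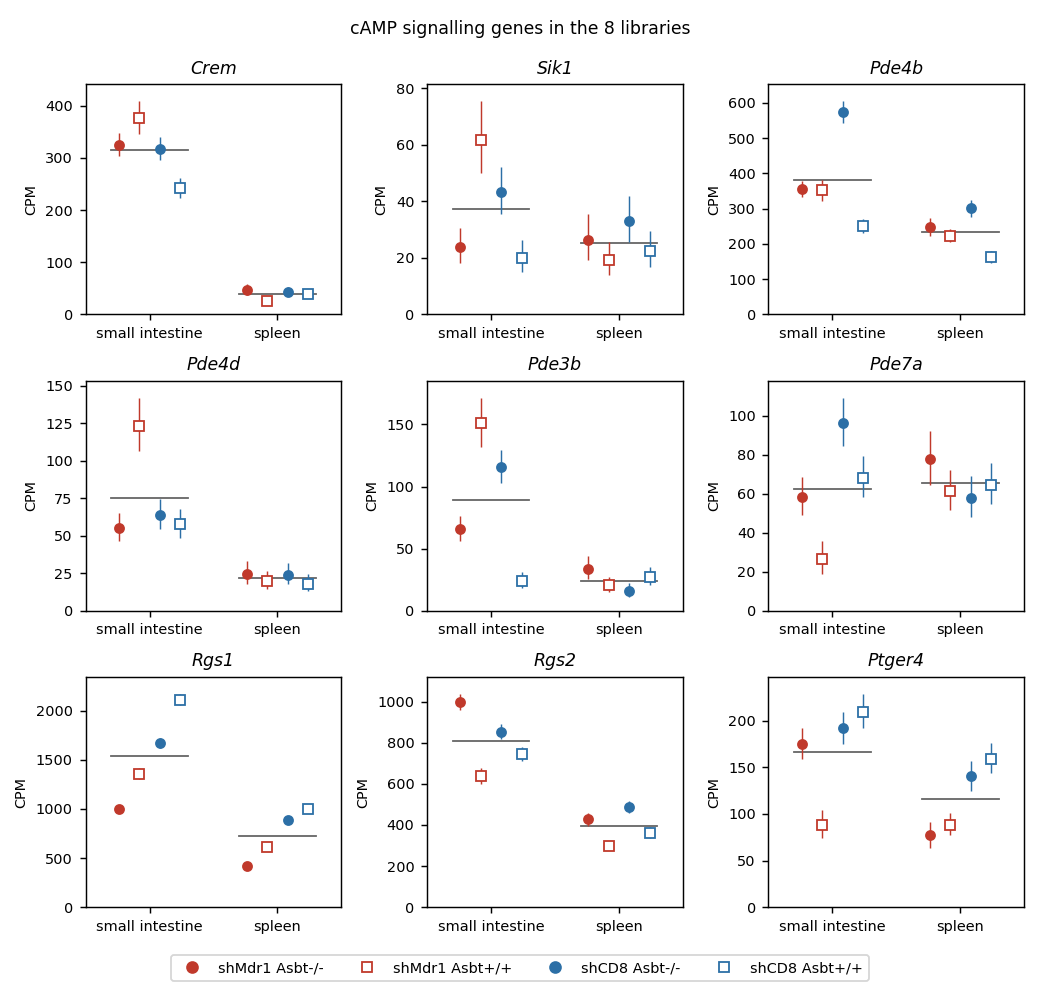
CPM (TMM-scaled, linear axes from 0) of the 9 genes in each of the 8 libraries, by tissue; red is shMdr1 and blue shCD8, filled circles are Asbt-/- and open squares Asbt+/+ hosts. Vertical lines are exact Poisson 95% intervals and horizontal lines the mean of 4 libraries. Crem lies at 241 to 376 CPM in small intestine and at 25.4 to 47.4 CPM in spleen. The tissues overlap for Sik1, Pde4b, Pde3b, Pde7a and Ptger4.

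Sik1 encodes a salt-inducible kinase, itself induced by cAMP, that keeps the CREB coactivators of the CRTC family out of the nucleus. It was at 23.8 CPM in shMdr1 Asbt-/-, 61.6 in shMdr1 Asbt+/+, 43.1 in shCD8 Asbt-/- and 20.1 in shCD8 Asbt+/+ small intestine. The spleen libraries stood at 26.5, 19.1, 33.04 and 22.4 CPM in the same order. The tissues overlapped, and 2 of the 4 pairs were higher in small intestine. The fitted log2 value of 0.56 ± 0.53 became -0.04 without the shMdr1 small intestine Asbt+/+ library.

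Phosphodiesterases of families 3, 4 and 7 hydrolyse cAMP, and those of family 4 are specific for it. Pde4b had 355 CPM in shMdr1 Asbt-/-, 352 in shMdr1 Asbt+/+, 573 in shCD8 Asbt-/- and 249.6 in shCD8 Asbt+/+ small intestine. The spleen libraries had 247, 223, 301 and 162 CPM. The shCD8 small intestine Asbt+/+ library fell within the spleen range, although each small intestine library was 1.44-fold to 1.90-fold above its own spleen partner. Pde4d had 55.5, 123, 63.8 and 57.6 CPM in small intestine, against 24.6, 19.98, 23.9 and 18.1 CPM in spleen, again in the order shMdr1 Asbt-/-, shMdr1 Asbt+/+, shCD8 Asbt-/- and shCD8 Asbt+/+. Its tissues did not overlap, the pairs differed 2.21-fold to 5.94-fold, and the fitted log2 value was 1.75 ± 0.41.

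Pde3b, the family 3 enzyme that cGMP inhibits, was uneven within small intestine. It had 65.8 CPM in shMdr1 Asbt-/-, 151 in shMdr1 Asbt+/+, 116 in shCD8 Asbt-/- and 24.1 in shCD8 Asbt+/+. The spleen libraries had 33.9, 20.4, 15.8 and 27.5 CPM. In all, 3 of the 4 small intestine libraries lay above every spleen library, and the shCD8 Asbt+/+ library, the one with the fewest genes detected, lay among them. The fitted log2 value was 1.83 ± 0.53, or 3.56-fold. Within small intestine, leaving out the shMdr1 Asbt+/+ library gave 1.17 and leaving out the shCD8 Asbt-/- library gave 1.20. It was 2.20 and 2.21 without the shCD8 Asbt+/+ library of small intestine and of spleen. Pde7a, a cAMP-specific enzyme, averaged 62.2 ± 28.8 CPM in small intestine and 65.3 ± 8.60 CPM in spleen (SD, n = 4 each). Its small intestine values ran from 26.3 CPM in shMdr1 Asbt+/+ to 96.2 CPM in shCD8 Asbt-/-, on both sides of the spleen range of 57.9 to 77.6 CPM. Its fitted log2 value of -0.19 ± 0.37 became 0.11 without shMdr1 small intestine Asbt+/+.

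The RGS proteins speed up the GTPase of G protein alpha subunits and so end signals from coupled receptors. Rgs1, which in T cells dampens responses to chemokines, had 1001 CPM in shMdr1 Asbt-/-, 1359 in shMdr1 Asbt+/+, 1674 in shCD8 Asbt-/- and 2108 in shCD8 Asbt+/+ small intestine. The spleen libraries had 419, 614, 885 and 995 CPM. The tissues met without overlapping, at 1001 CPM in shMdr1 small intestine Asbt-/- and 995 CPM in shCD8 spleen Asbt+/+. Rgs2, which acts mainly on the Gq class of alpha subunits, had 996, 638, 854 and 746 CPM in small intestine, against 427, 300.1, 486 and 363 CPM in spleen in the same order. The tissue ratio was even across the pairs for both genes, 1.89-fold to 2.39-fold for Rgs1 and 1.76-fold to 2.33-fold for Rgs2. The fitted log2 values were 1.10 ± 0.24 for Rgs1 and 1.04 ± 0.23 for Rgs2.

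Ptger4 encodes EP4, a Gs-coupled receptor for prostaglandin E2. It had 175 CPM in shMdr1 Asbt-/-, 88.6 in shMdr1 Asbt+/+, 192 in shCD8 Asbt-/- and 209.8 in shCD8 Asbt+/+ small intestine, against 76.9, 88.7, 140.3 and 159.5 CPM in spleen. The tissues overlapped, and in the shMdr1 Asbt+/+ pair the levels were nearly equal. Ttc33, which overlaps Ptger4 on the opposite strand in GENCODE vM21, had 269 counts summed over all 8 libraries. Ptger4 had 125 to 532 counts in each single library. The strand setting of the counting is not given in the sources used here.

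Over the 9 genes, 8 had a fitted value above 0 in small intestine and 1 below 0. The median log2 fold change was 1.04, against -0.17 over all 10000 genes tested. Crem, Pde4d, Rgs1 and Rgs2, 4 of 9, had every small intestine library above every spleen library, as did 3.39% of all tested genes. For Rgs1 this depended on the TMM scaling, as given above. In 0 of 9 was every small intestine library below every spleen library, as in 4.68% of tested genes. Small intestine was higher in all 4 pairs for 5 of 9, the same 4 and Pde4b, as for 8.3% of tested genes. The number without overlap was 5 without shMdr1 small intestine Asbt+/+ (5.45% of tested genes), where Ptger4 joined. It was 6 without shCD8 small intestine Asbt+/+ (6.59%), where Pde4b and Pde3b joined, 7 without both (12.8%) and 4 without shMdr1 spleen Asbt-/- (4.34%). Since the tissue values were known when the genes were listed, these counts describe the choice.

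Summed levels of markers of other cells were as follows in the tissues. Neutrophil markers, 10 of 11 detected with Cxcr2 at 0, summed to 10.7 to 193 CPM in small intestine and 859 to 7574 CPM in spleen. Erythroid markers, 7 of 8 detected with the other one not in the table, summed to 38.3 to 105 CPM in small intestine and 1096 to 41578 CPM in spleen. Myeloid and antigen-presenting cell markers, 14 of 14 detected, summed to 601 to 1276 CPM in small intestine and 183 to 525 CPM in spleen. Epithelial markers, 13 of 13 detected, reached 864 CPM in shMdr1 small intestine Asbt+/+, the library highest in Crem, Sik1, Pde4d and Pde3b and lowest in Pde7a, Rgs2 and Ptger4 within its tissue. In small intestine they were at 47.9 CPM or more, and in spleen at 21.5 to 185 CPM. Natural killer and innate lymphoid markers, 6 of 7 detected with Ncr1 at 0, summed to 90.5 to 129 CPM in small intestine and 49.9 to 74.1 CPM in spleen. Stromal markers, 8 of 8 detected, summed to 31.7 to 78.3 CPM and 12.9 to 39.3 CPM, and mast cell markers, 1 of 6 detected, to 3.17 CPM or less and 1.85 to 7.08 CPM. The 2 CD8 markers reached 96.3 CPM in small intestine and 12.9 CPM in spleen, and the control hairpin is itself directed at CD8. Under shMdr1 and shCD8 they stood at 27.7 and 25.1 CPM in Asbt-/- small intestine. In Asbt+/+ small intestine they stood at 96.3 and 0 CPM. The spleen values were 0.616 and 0.958 CPM in Asbt-/- hosts and 12.9 and 6.45 CPM in Asbt+/+ hosts, in the same hairpin order. The part of these cells in the tissue values was not tested.

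**Figure D2:**
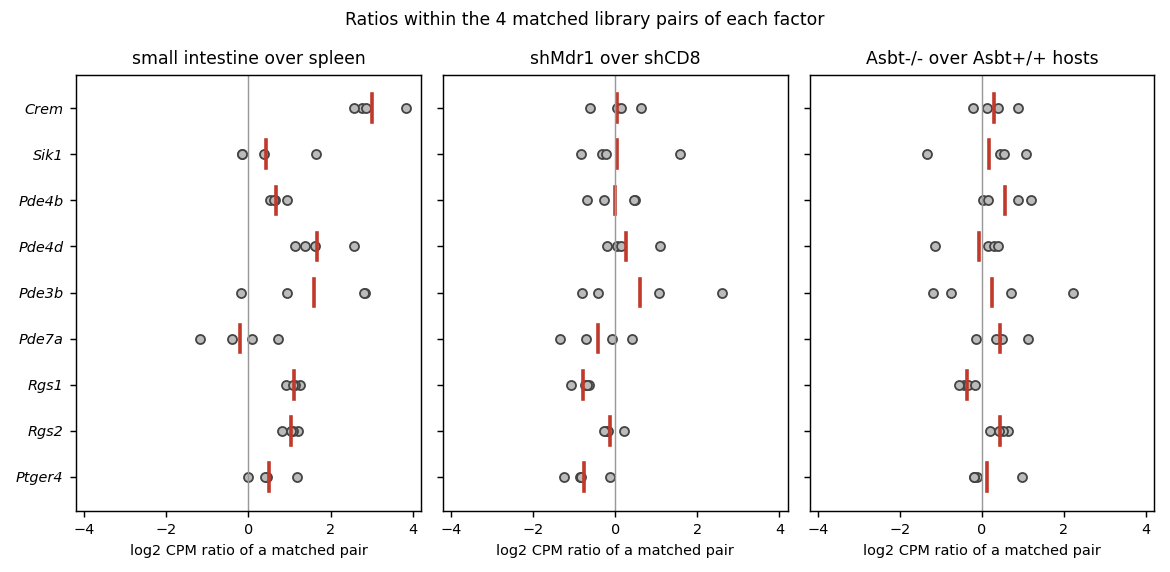
Log2 CPM ratios (prior count 2) within the 4 matched library pairs for tissue (left), hairpin (middle) and host (right), 1 row per gene; grey points are pairs and red bars their mean. Crem lies between 2.58 and 3.84 in the tissue panel, and Rgs1 lies below 0 in all pairs of the hairpin and host panels.

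The remaining pathway was read from 10 role lists with 96 other genes, of which 83 had a count and 55 were tested. Between the tissues 6 of the 55 passed edgeR as higher in small intestine, where 0.51% of all tested genes passed in that direction, and 0 passed as lower (0.11%). The median log2 fold change of the 55 was 0.11, with 30 above 0 and 25 below. Of the 6, 5 were among 11 tested CREB target genes: Nr4a3, Nr4a1 and Nr4a2, orphan nuclear receptor genes, Areg, an EGF receptor ligand, and Penk, the enkephalin precursor. Nr4a3 was 8.83-fold, Penk 7.79-fold and Nr4a1 5.23-fold higher, and each passed in all 8 fits that left out a library. Areg, 5.07-fold higher, passed in 2 of those fits, and Nr4a2, 4.38-fold higher, in 1, with adjusted p up to 0.118 and 0.123. All 5 were already known to be higher in these libraries when the list was made, so they are not independent evidence.

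The sixth was Gpr65, a proton-sensing Gs-coupled receptor. It had 76.1 CPM in shMdr1 Asbt-/-, 168 in shMdr1 Asbt+/+, 111 in shCD8 Asbt-/- and 143 in shCD8 Asbt+/+ small intestine, and 27.7, 44.5, 30.6 and 60.6 CPM in the spleen libraries. Every small intestine library was above every spleen library. The fitted difference was 3.09-fold (log2 1.63 ± 0.28, edgeR adjusted p = 0.0281), higher in 4 of 4 pairs. It passed in 1 of the 8 fits that left out a library, without shCD8 small intestine Asbt+/+ (adjusted p = 0.00740), and had an adjusted p of up to 0.162 in the other 7. Its direction held in all 8. With the 4 matched pairs as a block, Gpr65 no longer passed edgeR (log2 1.62 ± 0.30, adjusted p = 0.0507).

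Fos, an AP-1 subunit gene induced within minutes by cAMP and many other signals, averaged 1560 ± 344 CPM in small intestine and 2950 ± 652 CPM in spleen (SD, n = 4 each). The fitted log2 value was -0.93 ± 0.31, without overlap of the tissues and lower in 4 of 4 pairs. Fos did not pass edgeR (adjusted p = 0.375) and passed the DESeq2 Wald test (adjusted p = 0.0225). Of the 11 tested targets 9 stood above 0 and 2 below. The 9 include the 5 called genes, known to be higher when the list was made, so the count describes the list. Besides those, Junb (0.26), Egr1 (0.23), Per1 (0.47) and Dusp1 (0.08) stood above 0. Fos and Fosb (-0.40) stood below.

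The other 8 roles gave 0 calls in edgeR, and the DESeq2 Wald test called 1 gene in them, Pkib, a protein kinase A inhibitor (adjusted p = 0.000892, against 0.138 in edgeR). Pkib had 24, 8, 30 and 195 counts in small intestine and 0, 2, 2 and 0 counts in spleen, both in the order shMdr1 Asbt-/-, shMdr1 Asbt+/+, shCD8 Asbt-/- and shCD8 Asbt+/+, so most of its counts were in 1 library. Adcy7, the 1 adenylyl cyclase tested of 10, had 53.9 to 83.0 CPM in small intestine and 98.6 to 121 CPM in spleen, a log2 value of -0.81 ± 0.26 without overlap (edgeR adjusted p = 0.368). Prkar1a, a regulatory subunit of protein kinase A, had 372 to 452 CPM in small intestine and 230.2 to 287 CPM in spleen, a log2 value of 0.66 ± 0.22, again without overlap (edgeR adjusted p = 0.384). Gnai2, an inhibitory G protein subunit, stood at 0.38 ± 0.24 on the log2 scale (edgeR adjusted p = 0.743). Its tissues only just failed to overlap, at 243.9 to 393 CPM in small intestine and 205 to 241.8 CPM in spleen. Rapgef4, an exchange factor that cAMP activates directly, had 3.21 to 8.78 CPM in small intestine and 3.08 to 11.2 CPM in spleen. Gpbar1, the Gs-coupled receptor for bile acids, was not detected in small intestine and had 1 count in shMdr1 Asbt+/+ and 2 in shCD8 Asbt-/- spleen, so no level could be compared at this depth.

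**Figure D3:**
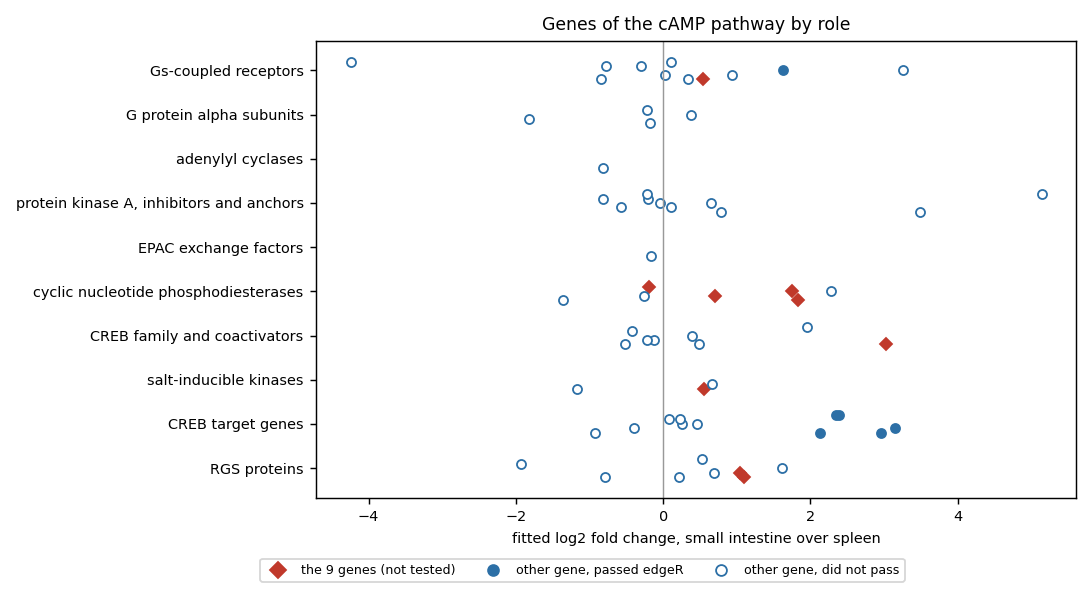
Fitted log2 fold change of small intestine over spleen for the tested genes of the 10 role lists, 1 row per role, with vertical scatter that carries no meaning; red diamonds are the 9 genes, given without a test, and blue points the others, filled where edgeR called them. Gpr65 at 1.63 is the filled point among the receptors, and the 5 other filled points are CREB target genes.

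The genes whose profile was most like that of Crem were ranked by Pearson's correlation of log2 CPM over the 8 libraries, among 9999 tested genes. They were Rel, an NF-kB subunit (r = 0.993), Nr4a1 (0.987), Nr4a3 (0.984), Prdx6, a peroxiredoxin (0.982), and Slamf8, a SLAM family receptor with 0 counts in all 4 spleen libraries (0.974). Slamf8 had 8 to 24 counts in a small intestine library, so its profile rests on few counts. The libraries fall into 2 tissue groups, and both genes of a pair share library and depth, so the values are a description with no test. Rel had 222 to 229 CPM in small intestine and 72.0 to 98.2 CPM in spleen. Among the members Pde4d ranked 24th (r = 0.945) and Rgs2 ranked 43rd (0.925). Pde3b followed at 0.789, Rgs1 at 0.731, Pde4b at 0.706, Sik1 at 0.511 and Ptger4 at 0.432, and Pde7a stood at -0.24.

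**Figure D4:**
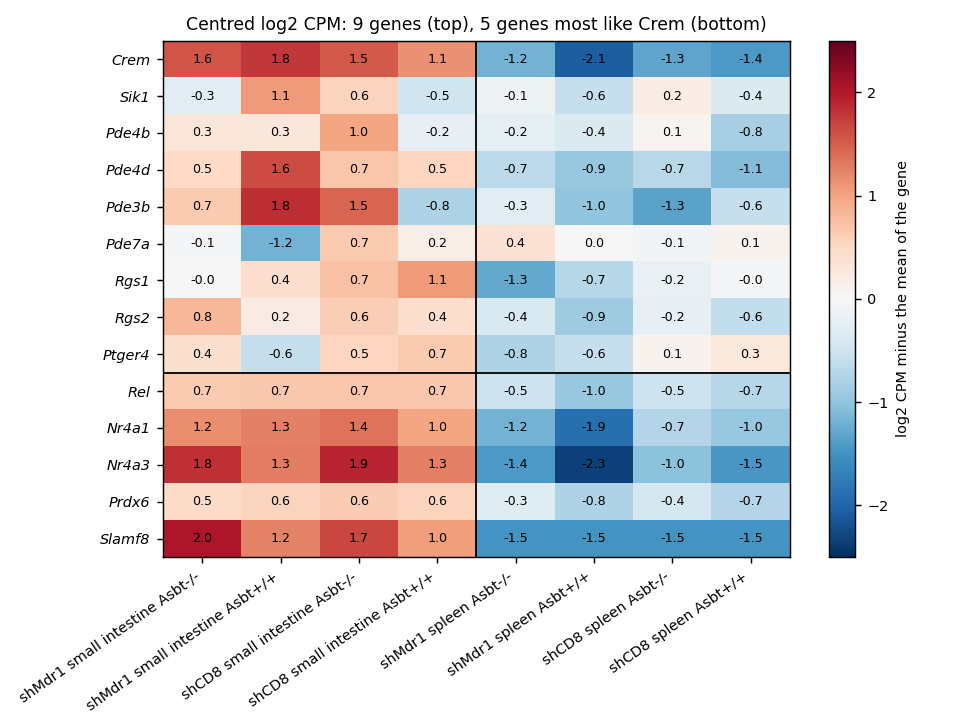
Log2 CPM (prior count 2) minus the mean of each gene over the 8 libraries, printed in each cell and coloured from blue (below the mean) to red (above), for the 9 genes above the line and the 5 genes most like Crem below it. Crem, Pde4d and Rgs2 are above their mean in the 4 small intestine libraries and below it in the 4 spleen libraries. The 5 genes most like Crem show the same, and Sik1, Pde4b, Pde3b, Pde7a, Rgs1 and Ptger4 do not.

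The hairpin comparison asks what a hairpin against the transporter does to these genes. Hairpins are as labelled. In the Asbt+/+ small intestine pair Abcb1a was not lower with shMdr1, at 23 counts against 21 with shCD8. Rgs1 and Ptger4 had lower values with shMdr1 in 4 of 4 pairs, and neither passed edgeR. Within the pairs, shMdr1 over shCD8 gave Rgs1 ratios of 0.598 (Asbt-/-) and 0.645 (Asbt+/+) in small intestine, and of 0.473 (Asbt-/-) and 0.617 (Asbt+/+) in spleen. The hairpin groups overlapped across tissues, at 419 to 1359 CPM with shMdr1 and 885 to 2108 CPM with shCD8. Its fitted log2 value was -0.79 ± 0.24 (edgeR unadjusted p = 0.00702, adjusted p = 0.999). In the DESeq2 Wald test the adjusted p was 0.050007. The value lay between -0.84 and -0.72 over 14 other settings, and was -0.84 without both libraries of that pair.

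The Ptger4 ratios were 0.913 (Asbt-/-) and 0.425 (Asbt+/+) in small intestine, and 0.551 (Asbt-/-) and 0.558 (Asbt+/+) in spleen, the one nearest 1 being the Asbt-/- small intestine pair. Its levels were 76.9 to 175 CPM with shMdr1 and 140.3 to 209.8 CPM with shCD8. The fitted log2 value was -0.74 ± 0.28 (edgeR unadjusted p = 0.0213, adjusted p = 0.999), between -1.01 and -0.57 over the other settings, and -0.61 without both libraries of that pair. In all, 2 of 9 genes were lower with shMdr1 in all 4 pairs, against 7.91% of all tested genes, and 0 were higher in all 4, against 8.12%. For 0 of 9 did the hairpin groups separate completely, against 2.79%. Each hairpin group holds both tissues, so Crem, Pde4d, Rgs1 and Rgs2, whose tissues did not overlap, could not separate by hairpin. For them that count decides nothing. Crem differed in opposite directions in the 2 tissues of Asbt+/+ hosts, with 376 CPM under shMdr1 and 241 under shCD8 in small intestine, but 25.4 under shMdr1 and 39.6 under shCD8 in spleen. Its fitted log2 value was 0.08 ± 0.27.

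The other 6 genes had fitted hairpin values from -0.42 for Pde7a to 0.50 for Pde3b, and edgeR adjusted p was 0.999 or more for all 9. Of the 10000 genes tested 0% passed, with 299 (2.99%) at an unadjusted p under 0.05, among them 2 of the 9. The DESeq2 Wald test called 4 genes, and 0 of the 9 or of the other 55 pathway genes. It gave no adjusted p for Sik1, Pde4d, Pde3b and Pde7a, which therefore could not be called.

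The host comparison asks whether loss of the bile acid transporter in the host changes these genes. Pde4b and Rgs2 had higher values in Asbt-/- than in Asbt+/+ hosts in 4 of 4 pairs. Pde4b averaged 369 ± 143 CPM in Asbt-/- and 247 ± 79.1 CPM in Asbt+/+ hosts (SD, n = 4 each), a log2 value of 0.57 ± 0.27 (edgeR unadjusted p = 0.0562, adjusted p = 0.996). The pairs were uneven, at 2.29-fold with shCD8 and 1.01-fold with shMdr1 in small intestine, and 1.85-fold with shCD8 and 1.11-fold with shMdr1 in spleen. Rgs2 averaged 691 ± 278 CPM in Asbt-/- and 512 ± 214 CPM in Asbt+/+ hosts, a log2 value of 0.44 ± 0.23 (edgeR adjusted p = 0.996), with pairs from 1.14-fold to 1.56-fold. Rgs1 went the other way, at -0.37 ± 0.24, lower in 4 of 4 pairs (edgeR adjusted p = 0.996).

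Thus 2 of the 9 genes were higher in all 4 pairs, against 8.74% of tested genes, and 1 was lower, against 5.39%. In edgeR 0% of 10000 genes and 0 of the 9 passed, with 271 genes (2.71%) at an unadjusted p under 0.05, 0 of them among the 9. The host groups separated completely for 0 of 9 genes, and for 2.71% of tested genes. Both tissues are in each host group too, so Crem, Pde4d, Rgs1 and Rgs2 could not separate by host, and the count decides nothing for them. DESeq2 called 4 genes, 0 of them among the 64 tested pathway genes. It gave no adjusted p for Sik1, which therefore could not be called. Crem stood at 0.26 ± 0.27 on the log2 scale, with 183 ± 159 CPM in Asbt-/- and 171 ± 169 CPM in Asbt+/+ hosts, an SD that holds the tissue difference. The values of the remaining 5 genes ran from -0.10 for Pde4d to 0.44 for Pde7a.

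Whether the hairpin or host effect depended on tissue, or the hairpin effect on host, was tested with interaction terms. None of the 9 genes passed edgeR in any of the 3 tests, in which 0% of 10000 genes passed, with 1.7% (hairpin by tissue), 4.31% (host by tissue) and 1.19% (hairpin by host) at an unadjusted p under 0.05. The smallest unadjusted p of a member was 0.0641, for the dependence of the Pde4b hairpin value on the host (log2 -0.97 ± 0.47, edgeR adjusted p = 1). With shMdr1 over shCD8, Pde4b stood at 0.620-fold in small intestine and 0.821-fold in spleen of Asbt-/- hosts, and at 1.41-fold and 1.37-fold in Asbt+/+ hosts. With 1 library per combination these fits have few residual degrees of freedom, and a value that did not pass does not show that the effects were alike.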

How the data were processed

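RNA was measured in 8 libraries. SMART-Seq v4, a low-input method that copies whole transcripts and carries no molecular identifiers, and NEBNext Ultra II were used, per the labels' protocols. The authors deposited whole-number counts per gene, unnormalised. TopHat, HTSeq, DESeq2 and build mm9 are named, per the submitters' processing notes, with version, role, annotation and strand setting not given in the sources used here. The hairpin was read from titles, as another label names shMdr1 for all 8.

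From those counts, filterByExpr on an additive design (tissue, hairpin, host) kept 10000 genes. Scaling was TMM and testing edgeR 4.0.16 quasi-likelihood in R 4.3.3, Benjamini-Hochberg adjusted over every tested gene at 0.05. Each SE was derived from the fold change and its F statistic. Interaction terms had their own fits. Whether libraries came from separate animals is unstated, so p-values measure spread between libraries, which may be technical. With 1 library per combination, any interaction between the factors also enters that spread in the additive fit. Scripts were tested on simulated data. The members had 33 to 5346 counts per library.

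The members, pathway lists and markers were chosen with earlier results of these data known. Named were the members, other pathway genes past the test, the gene of highest mean CPM in each role (a rule for naming, since CPM is not corrected for length), and the 5 genes most like Crem; Gpbar1 and Pkib were chosen after their values were seen, as were the counts of non-overlapping members with libraries left out, the fit with matched pairs as a block, and counting pathway calls without the members. Other settings were DESeq2's size factors, no low-count filter, DESeq2 1.42.0, leaving out 1 library or both small intestine Asbt+/+ libraries, removing hemoglobin, mitochondrial and Rn18s-rs5 counts, and, for likeness to Crem, a prior count of 10 in place of 2. One of the marker lists is not reported here.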

Additional observations from a re-analysis of the deposited data

Results flagged for a closer look

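Pde4d in shMdr1 small intestine Asbt+/+ stood at 123 CPM, far from the other 3 small intestine libraries at 55.5 to 63.8 CPM. The gap to the nearest library was 0.876 of the whole range, above the Dixon critical value of 0.829 for 4 samples. Without that library the fitted log2 tissue value of Pde4d was 1.39, against 1.75 with it. Of 46 groups of 4 libraries examined, 1 was flagged, and chance flags about 1 in 20.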

How the results depend on the processing

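None of the 9 genes passed in the hairpin or host comparison under the 14 other settings. In the DESeq2 Wald test, Sik1, Pde4d, Pde3b and Pde7a had no adjusted p for hairpin, nor Sik1 for host, and could not pass there. The labels give no replicate numbers. A fit with the 4 matched pairs of each factor as a block, added after seeing the data, passed 54 genes between tissues, 5 of them other pathway genes, and 0 for hairpin and for host; Gpr65 was the pathway gene lost. Between tissues 62 genes passed, against 165 without a filter, 257 by DESeq2, 39 without both small intestine Asbt+/+ libraries and 11 to 137 with 1 library left out (11 without shMdr1, 137 without shCD8 small intestine Asbt+/+). Of the 55 pathway genes other than the members 6 passed, against 7 without a filter, 8 by DESeq2 and 3 to 6 with 1 library left out (3 without any 1 of 6 libraries, 6 without shCD8 small intestine Asbt+/+). The hairpin count of 0 became 9 without a filter, 4 by DESeq2 and 0 to 0 with 1 library left out, and the host count of 0 became 14, 4 and 0 to 4. For hairpin by tissue the count of 0 became 1 by DESeq2 and 1 to 2921 with 1 library left out, for host by tissue 21 and 0 to 3297, and for hairpin by host 3 without a filter and 0 to 770. Pathway genes in these 3 tests numbered 0 to 12, 0 to 12 and 0 to 1 with 1 library left out. Leaving out a small intestine library leaves the tissue interactions with residuals from spleen alone. Without both small intestine Asbt+/+ libraries they could not be fitted. With 1 library left out, the log2 tissue value ran from -0.035 to 0.80 for Sik1 and from -0.52 to 0.11 for Pde7a. The log2 hairpin value ran from -0.15 to 0.27 for Crem, -0.42 to 0.38 for Sik1, -0.15 to 0.17 for Pde4b, -0.047 to 0.52 for Pde4d and -0.019 to 1.11 for Pde3b. The log2 host value ran from -0.15 to 0.66 for Sik1, -0.24 to 0.23 for Pde4d, -0.38 to 0.75 for Pde3b and -0.12 to 0.22 for Ptger4. Without both small intestine Asbt+/+ libraries, the tissue value of Pde7a was 0.17, the hairpin values of Crem, Sik1, Pde4d and Pde3b were -0.14, -0.47, -0.015 and -0.11, and the host values of Pde4d and Ptger4 were 0.35 and -0.19. The cause was not tested for any of these. With a prior count of 10, Gch1 took the place of Slamf8 among the 5 genes most like Crem. Pde3b, Pde4d, Pde7a and Sik1 have the fewest counts, as few as 33, 40, 41 and 43 in a library, which limits their precision.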
